A study of Mus musculus with 24 samples.

Results

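The day 7 to day 8 change in gene expression was compared between 2 genotypes of cultured mouse dendritic cells, gene by gene. The quantity is the difference of 2 changes, the KO change (day 8 minus day 7) minus the WT change (day 8 minus day 7), and it is called the interaction. Its members are 12 of the 24 libraries of the series, chosen by genotype and day, with 3 libraries in each of 4 groups, and all 14535 genes that passed a filter on low counts out of 55487 genes in the count table. A positive interaction log2 value means that a gene went up more, or down less, in KO than in WT.

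The cells were dendritic cells grown from bone marrow with 50 ng/mL of the growth factor GM-CSF, taken from mice 8 to 10 weeks old and of both sexes. Marrow of both genotypes carried ARPC4 Flox/Flox alleles. The WT group was CD11c-Cre -/- and so had floxed alleles and no Cre, and the KO group was CD11c-Cre +/-. Cre was driven by CD11c, a gene that marrow cells switch on as they become dendritic cells, so deletion depends on how far each cell has come. Cultures were replated on days 4 and 7, only cells in suspension were taken, and more than 90% of them carried CD11c per the labels. The day 7 to 8 step therefore spans the second replating. Mouse numbers were 63, 65 and 66 in WT and 64, 67 and 68 in KO. RNA was poly(A)-selected and sequenced with strand kept.

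Arpc4 encodes a subunit of the Arp2/3 complex, which starts branched actin filaments. The 4 genes below that passed the interaction threshold belong to the amino acid response or load amino acids onto tRNA. In that response, when an amino acid runs short, uncharged tRNA activates the kinase GCN2, translation slows, and the transcription factor ATF4 switches on genes that make, import and load amino acids onto tRNA. Fresh medium supplies amino acids, and dividing or secreting cells use them up. Neither supply nor use was measured in these libraries, and a part of either in the results below was not tested.

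The 12 libraries held 24030705 to 28651870 counts. The first principal component carried 53.8% of the variance and separated the days. WT libraries sat close together on it, at -47.2 ± 0.82 on day 7 and 36.4 ± 2.7 on day 8 (SD, n = 3). KO libraries were more spread, at -33.6 ± 9.2 on day 7 and 44.4 ± 12.3 on day 8. On the second component the KO libraries numbered 67 stood apart at -40.0 on day 7 and -31.5 on day 8, and the day 8 KO library numbered 68 stood at the other end, at 25.8. The Y-linked gene Ddx3y was high in 1 library per group (59.2 to 83.9 CPM) and at most 0.101 CPM in the rest. In WT that library was number 63 on both days, but in KO it was number 64 on day 7 and number 68 on day 8. Xist read at most 0.175 CPM in the libraries where Ddx3y was high and 564 to 948 CPM in the rest. In both genes the KO numbers therefore do not match between the days, and KO libraries are named below by label and day. Of 12 dendritic cell markers, 10 stood at or above 1 TPM in all 12 libraries, while Zbtb46 and Cd209a were below that in some. All 17 neutrophil markers, 12 of 14 macrophage markers and 8 of 10 mast cell and basophil markers also stood at or above 1 TPM in all 12 libraries. So did 2 of 10 lymphoid markers and 4 of 11 red cell and megakaryocyte markers (Pf4, Ppbp, Itga2b and Gp9). Another 5 of those 11 stayed below 1 TPM in all 12 libraries. Only 1 of them, Alas2, an enzyme of red cell precursors, was at 0 throughout. In bulk RNA, fewer cells of a type and less RNA per cell cannot be told apart.

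Arpc4 itself read 189, 188 and 199 CPM (counts relative to the library's total, scaled between libraries by the TMM method) in WT on day 7, and 155, 170.3 and 182 in KO. On day 8 it read 270.3, 246 and 265 in WT, and 230.3, 231 and 223 in KO. The KO libraries lay below the WT libraries on both days, by a log2 value of -0.19 each time, which did not pass edgeR's quasi-likelihood test (adjusted p = 0.18 on day 7 and 0.69 on day 8). The count covers the whole gene, so reads from parts that Cre does not remove are included, and it does not show how much of the gene was deleted. Ttll3 overlaps Arpc4 on the same strand and had 8.4% of its counts. Arpc4 rose in both genotypes from day 7 to day 8, by 0.44 in WT and 0.43 in KO on the log2 scale. Its interaction was -0.0032 ± 0.095 (SE), so the step changed the level of the targeted gene by nearly the same amount in both.

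The change from day 7 to day 8 was large in each genotype, and it was mostly the same change. In WT, 6315 genes (43.4% of those tested) passed an adjusted p of 0.05 in edgeR's quasi-likelihood test with Benjamini-Hochberg adjustment, with 3120 rising (21.5%) and 3195 falling (22%). The KO count was 6110 (42%), with 3071 rising (21.1%) and 3039 falling (20.9%). These splits depend on the scale: on the authors' TPM values, where the median gene moved by 0.17 in both genotypes, limma called 5081 genes higher and 1722 lower in WT and 5065 higher and 1628 lower in KO. The 2 changes share no library, and across genes they had a Pearson r of 0.835. This is a description over genes, which are not independent. In both genotypes 4845 genes were called, which is 76.7% of the WT calls and 79.3% of the KO calls, and 4840 of them moved the same way.

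**Figure D1:**
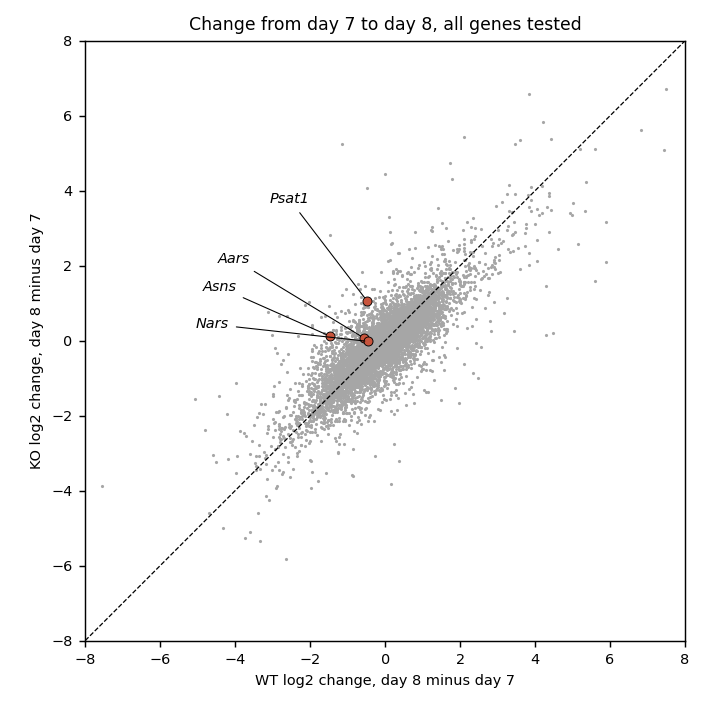
Each grey point is 1 of the 14535 genes tested, placed by its log2 change from day 7 to day 8 in WT (horizontal) and in KO (vertical), with the dashed line where both are equal. The 4 genes whose interaction passed the threshold (red) lie above the line, at WT values from -1.48 to -0.45.

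Only 5 genes were called in both genotypes with opposite signs. Psat1 and Eprs, described below, fell in WT and rose in KO. Insig1, which holds back sterol synthesis, and Rapsn, known for clustering receptors at the nerve-muscle junction, rose in WT and fell in KO. Rgs9, a regulator of G protein signalling named here after its values were seen, did the same at levels of at most 0.399 CPM.

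The interaction itself passed an adjusted p of 0.05 for 4 genes, 0.0275% of those tested: Asns, Aars, Psat1 and Nars. All were positive, and 0 genes were called in the negative direction. Without adjustment, 685 genes (4.71%) had a p under 0.05, 402 positive (2.77%) and 283 negative (1.95%). The median interaction over all genes was -0.000319 and the median SE was 0.202. The count depends on the model: the DESeq2 Wald test called 24 genes (21 positive and 3 negative), limma on log2(TPM + 1) called 0 with 555 at an unadjusted p under 0.05, and edgeR on the 12 libraries alone called 1, Asns. With the mouse number as a replicate block, as labelled, 2 genes passed (Asns and Ptx3). With KO numbers 64 and 68 exchanged on day 8, 28 passed, 12 positive and 16 negative, and these held 3 of the 4 genes above (not Nars). Ddx3y also allows another order, in which day 7 KO numbers 64, 67 and 68 go with day 8 numbers 68, 64 and 67. In that block 4 other genes passed (Ccl7, Ptx3, Fosb and Ccl2) and 0 of the 4 genes above. The count was 0 when all libraries numbered 65, 66 or 68 were left out, each number in turn.

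Asns (ENSMUSG00000029752.12, chr6:7675169-7693254, minus strand, GRCm38) encodes asparagine synthetase, which makes asparagine from aspartate and glutamine and is a classic target of ATF4. It read 33.2, 38.9 and 47.4 CPM in WT on day 7 and 15.4, 13.8 and 13.6 on day 8. In KO it read 11.2, 14.5 and 12.7 CPM on day 7 and 12.7, 15.6 and 13.5 on day 8. The 3 WT libraries of day 7 were high, and the other 9 lay in a low band where the groups overlapped. Asns fell 2.79-fold in WT (log2 -1.48 ± 0.16, SE), whereas its KO value was 0.12 ± 0.16 and did not pass the test. The interaction was 1.60 ± 0.22 with an adjusted p of 0.0067 in edgeR's quasi-likelihood test. It passed with each of the 12 libraries left out in turn, at log2 values from 1.46 to 1.72. In edgeR's test it missed the threshold when all libraries numbered 65, 66 or 68 were left out (1.59, 1.42 and 1.61, adjusted p = 0.17, 0.24 and 0.077). It also missed it in the block with the other order of KO numbers (1.57, adjusted p = 0.057, edgeR) and in limma on TPM (1.52, adjusted p = 0.059).

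Psat1 (ENSMUSG00000024640.9, chr19:15904678-15947337, minus strand) encodes phosphoserine aminotransferase, which acts in the making of serine from glucose. Its WT libraries read 37.8, 44.1 and 53.8 CPM on day 7 and 36.8, 26.6 and 33.3 on day 8. Its KO libraries read 15.4, 15.1 and 17.3 CPM on day 7 and 31.1, 42.8 and 26.0 on day 8. On day 7 every KO library was below every WT library, and on day 8 the genotypes overlapped. Psat1 fell 1.40-fold in WT and rose 2.09-fold in KO, so here both arms moved. The interaction was 1.55 ± 0.26 with an adjusted p of 0.033 in edgeR's test. It stayed past the threshold without the day 7 WT library 63 (1.67) or the day 8 KO library 68 (1.70). Without each of the other 10 libraries in turn it was 1.33 to 1.65 with an adjusted p of 0.0501 to 0.16, and with the labelled mice as a block it was 1.51 with an adjusted p of 0.084.

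Aars (ENSMUSG00000031960.14, chr8:111033144-111057664, plus strand) encodes the cytosolic enzyme that loads alanine onto its tRNA. It read 164, 182 and 196 CPM in WT on day 7 and 125, 118 and 122 on day 8, against 111, 113 and 112 in KO on day 7 and 109.5, 119 and 125 on day 8. As with Asns, the day 7 WT libraries stood above the other 9. Aars fell 1.49-fold in WT (log2 -0.57 ± 0.073, SE), and its KO value of 0.07 ± 0.073 did not pass. The interaction was 0.65 ± 0.10 with an adjusted p of 0.030 in edgeR's test. It stayed past the threshold without the day 7 WT library 63 (0.71) or the day 8 KO library 64 (0.68). Without each of the other 10 in turn it was 0.59 to 0.66 with an adjusted p of 0.051 to 0.16, and with the labelled mice as a block it was 0.63 with an adjusted p of 0.084. Exosc6 lies within the Aars gene on the same strand and was listed at 0 counts.

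Nars (ENSMUSG00000024587.10, chr18:64499647-64516652, minus strand) encodes the cytosolic enzyme that loads asparagine, the product of Asns, onto its tRNA. Its values were 202, 215 and 219.9 CPM in WT on day 7 and 154, 158 and 155 on day 8. In KO they were 158, 162 and 161 on day 7 and 159.7, 153 and 163 on day 8. Again the 3 day 7 WT libraries stood above the other 9. Nars fell 1.36-fold in WT, and its KO value was -0.02 ± 0.052 on the log2 scale. The interaction was 0.42 ± 0.074 with an adjusted p of 0.045 in edgeR's test, and it passed without the day 7 WT library 63 (0.46). Without each of the other 11 libraries it was 0.40 to 0.45 with an adjusted p of 0.061 to 0.198, and with the labelled mice as a block it was 0.41 with an adjusted p of 0.19.

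**Figure D2:**
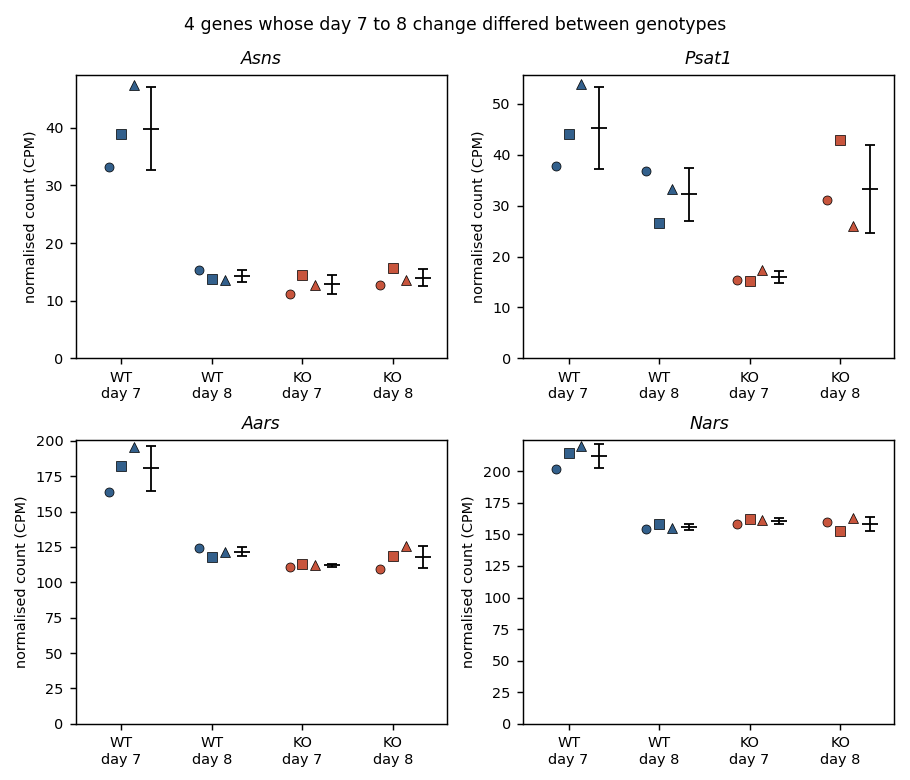
Normalised counts (CPM) of Asns, Psat1, Aars and Nars in each of the 12 libraries, WT blue and KO red, with the mean and SD (n = 3) in black beside each group. Circles, squares and triangles are mice 63, 65 and 66 in WT and the labels 64, 67 and 68 in KO; for Asns, Aars and Nars the 3 day 7 WT libraries lie above all others, and for Psat1 the 3 day 7 KO libraries lie below all others.

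These 4 genes differed between genotypes on day 7 and not detectably on day 8. The KO minus WT log2 values on day 7 were -1.64 for Asns, -1.50 for Psat1, -0.69 for Aars and -0.40 for Nars, all past the threshold in edgeR's test, as 211 genes (1.45% of those tested) were. Without the libraries numbered 66 that count was 11, and without those numbered 64 it was 351. On day 8 they were -0.04, 0.05, -0.04 and 0.02, with SEs of 0.16, 0.18, 0.073 and 0.052. These comparisons use the same libraries as the interaction and are given beside it, not as separate evidence. On day 8 only Plcb4, a phospholipase C gene named here after its values were seen, passed the threshold (0.00688%), with 859 genes (5.91%) at an unadjusted p under 0.05. Without the day 8 KO library 68, 70 genes passed. Plcb4 read 0.599 to 0.963 CPM in the WT libraries of day 7 and 0.459 to 0.798 in those of day 8. Its KO libraries read 7.33 to 8.62 CPM and 6.34 to 8.68. Its interaction of 0.23 ± 0.33 did not pass, and its KO libraries were above its WT libraries on both days.

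The naming rule added 6 further positive genes in order of p, of which 4 belong to the amino acid or synthetase lists, and none of the 6 passed. Eprs, the enzyme that loads both glutamate and proline, read 143, 158 and 155 CPM in WT on day 7 and 123, 133 and 117 on day 8. In KO it read 123, 103 and 106 on day 7 and 136, 129 and 125 on day 8, and its interaction was 0.52 (adjusted p = 0.060, edgeR). Ptx3, a pentraxin that binds microbes and complement, read 25.6, 34.97 and 26.6 CPM in WT on day 7 and 10.4, 9.86 and 10.3 in KO. On day 8 it read 30.7, 39.7 and 34.0 in WT and 32.5, 28.4 and 26.8 in KO. It rose in KO (1.52 on the log2 scale), its WT value of 0.26 did not pass, and its interaction was 1.26 (adjusted p = 0.072, edgeR). With the labelled mice as a block its interaction was 1.24 with an adjusted p of 0.011. Ghitm, a protein of the inner mitochondrial membrane, fell in WT (-0.51) and stood at -0.08 in KO, with an interaction of 0.43. Cars, which loads cysteine, fell in both genotypes, by 0.94 in WT and by 0.34 in KO. Trib3, a pseudokinase that ATF4 induces and that restrains it, also fell in both, by 1.60 in WT and by 0.54 in KO. Slc7a1, an importer of arginine and lysine, rose in KO (0.92), and its WT value was -0.08.

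Among the wider amino acid response list, 33 of 35 genes were tested and 30 had a positive interaction. The median interaction of the list was 0.61, against -0.000319 for all genes, and 12 members had an unadjusted p under 0.05, all positive, against 2.77% of all genes. Only Asns and Psat1 passed the adjusted threshold. The 3 with a negative value were Cebpb, Mthfd1l and Atf3, at -0.21 ± 0.20, -0.15 ± 0.26 and -0.04 ± 0.37 (SE). In WT 10 members fell and 3 rose, where 22% of all genes fell and 21.5% rose, and the list median was -0.34. In KO 2 fell and 10 rose, where 20.9% of all genes fell and 21.1% rose, and the median was 0.32. The 10 of 33 in each case are not far above those shares. The 3 that rose in WT (Slc7a5, Slc1a5 and Mthfd1l) also rose in KO, and the 2 that fell in KO (Trib3 and Atf3) also fell in WT. Genes of this paragraph outside the naming rule were chosen after their values were seen.

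Among the enzymes that make amino acids and one-carbon units, Mthfd2 of mitochondrial one-carbon metabolism read 70.9, 84.2 and 95.9 CPM in WT on day 7 and 37.2, 35.1 and 30.6 on day 8. In KO it read 31.8, 45.2 and 40.3 on day 7 and 40.4, 50.3 and 31.01 on day 8, and its interaction of 1.34 ± 0.28 had an adjusted p of 0.12 in edgeR's test. The day 7 WT libraries stood above the other 9. Phgdh, the first enzyme of serine synthesis, read 11.6, 14.8 and 21.1 CPM in WT and 3.47, 8.02 and 4.93 in KO on day 7. On day 8 it read 19.1, 15.9 and 20.9 in WT and 19.1, 22.3 and 9.85 in KO. It rose in KO (1.65) while its WT value was 0.24, and every day 7 WT library was above every day 7 KO library. Aldh18a1, which acts in proline synthesis, rose in KO (0.87) with a WT value of 0.07, and Gpt2, an alanine aminotransferase, fell in WT (-0.77) with a KO value of -0.17.

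Atf4, the regulator of the response, is here measured as mRNA only. It read 244, 277 and 299 CPM in WT on day 7 and 214, 221 and 199 on day 8, and 186, 189 and 188 in KO on day 7 and 185, 189 and 240 on day 8. It fell in WT by 0.37, its KO value was 0.12, and its interaction was 0.49 ± 0.14 (adjusted p = 0.54, edgeR). ATF4 is known to be controlled largely through its translation, which these libraries do not measure. Chac1, which breaks down glutathione and is a sensitive ATF4 target, fell in WT (-1.93) at levels of 2.37 to 4.58 CPM on day 7 and 0.758 to 0.957 on day 8, and its KO value of -0.44 did not pass. Sesn2, a leucine sensor, rose in KO (0.27) and stood at -0.09 in WT. Slc7a5, the large neutral amino acid transporter, rose in both genotypes, by 1.40 in WT and 2.03 in KO, with an interaction of 0.63 ± 0.46 that did not pass.

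All 20 cytosolic tRNA synthetase genes were tested, and 19 had a positive interaction. Their median was 0.31, and 14 had an unadjusted p under 0.05, all positive, against 2.77% of all genes, with Aars and Nars past the adjusted threshold. In WT 7 fell and 5 rose, where 22% of all genes fell and 21.5% rose, so the share that rose was near the background. In KO 1, Cars, fell and 12 rose, where 20.9% of all genes fell and 21.1% rose. Those that rose in WT were Iars, Dars, Hars, Farsa and Kars, and all 5 rose in KO too. Within a genotype the enzymes went in both directions. The WT change ran from -0.94 for Cars to 0.69 for Farsa, the one member with a negative interaction (-0.07 ± 0.11). Sars fell in WT (-0.56) and had a KO value of -0.13; Yars, Gars and Tars rose in KO (0.34, 0.37 and 0.55) with WT values of -0.19, -0.09 and 0.13. Hars, which loads histidine, rose by almost the same amount in both, 0.52 in WT and 0.60 in KO. Of 17 mitochondrial tRNA synthetase genes tested, 12 had a positive interaction and 0 had an unadjusted p under 0.05 in edgeR's test, and their median was 0.070. The genes named here other than Aars, Nars, Eprs and Cars were chosen after their values were seen.

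On day 7, 10 members of the amino acid response list and 10 synthetase genes were called lower in KO, where 0.619% of all genes were (without the libraries numbered 66, 11 genes were called in all). Every WT library was above every KO library for 20 of 33 and 15 of 20 members, against 14.2% of all genes. On day 8 that held for 1 and 0 members, against 4.99%, and no member of either list was called in either direction; the list medians of KO minus WT were then 0.04 and 0.03. The mean log2 CPM of the synthetase list was 5.96 in all 3 day 7 KO libraries. It was 6.19 to 6.33 in the day 7 WT libraries, 6.16 to 6.26 in the day 8 WT libraries and 6.17 to 6.26 in the day 8 KO libraries. For the amino acid response list it was 4.25 to 4.51 for WT and 3.48 to 3.85 for KO on day 7, then 4.00 to 4.07 and 3.94 to 4.12. So on day 7 the genotypes did not overlap in either list mean, and on day 8 they did.

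**Figure D3:**
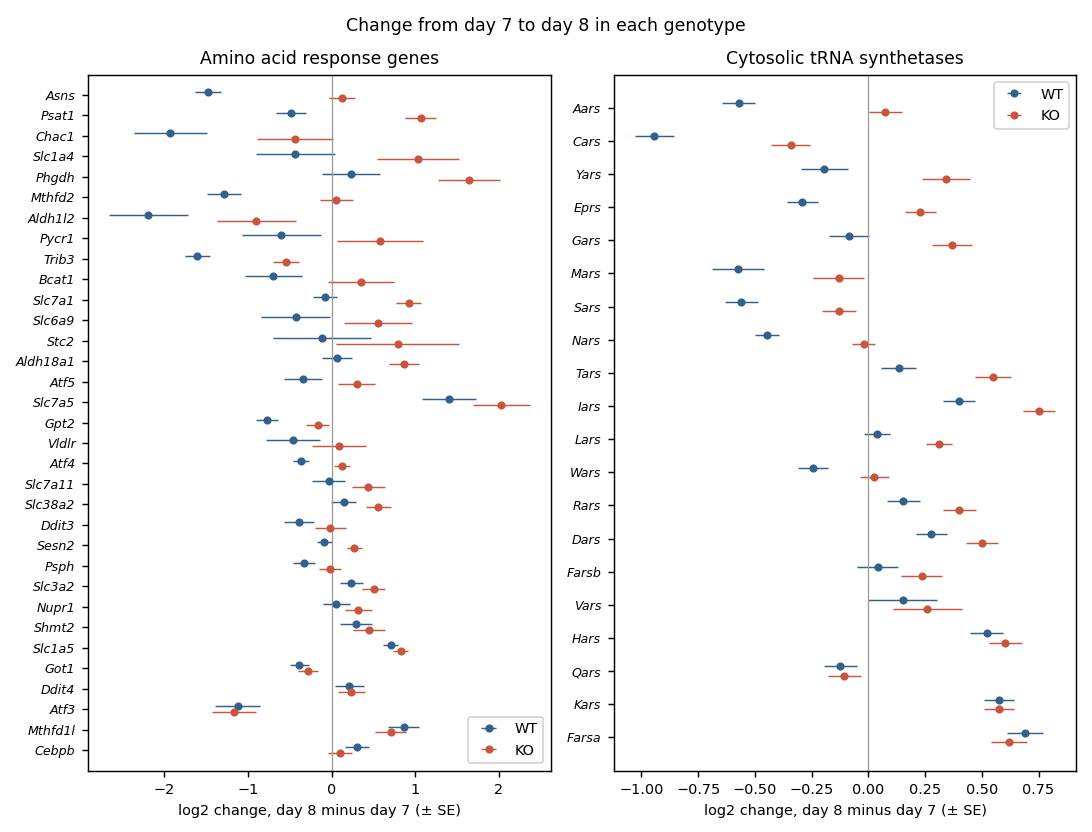
Log2 change from day 7 to day 8 (± SE from the fit) in WT (blue) and KO (red) for the 33 amino acid response genes and the 20 cytosolic tRNA synthetase genes tested, ordered by interaction from the highest at the top. KO lies to the right of WT for 30 and 19 genes; the order of the rows puts the widest gaps at the top of each panel.

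The promoters of the 2 lists were searched for TGATGNAA, the core of the site through which ATF4 and its C/EBP partners act on amino acid genes, on both strands (as TTNCATCA on the other). Promoters were the RefSeq windows of GRCm38.p6, from 250 bases before to 50 after each start. The sequences below are the 30 bases around the first match in 6 members. These were picked from members with a positive interaction and an unadjusted p under 0.05 (edgeR), so they do not stand for all members with a match. Capitals mark the match, and each is written 5′ to 3′ on the gene's strand.
Asns, chr6:7693214-7693243, minus strand: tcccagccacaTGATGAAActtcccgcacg
Chac1, chr2:119351038-119351067, plus strand: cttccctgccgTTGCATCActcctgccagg
Gars, chr6:55037960-55037989, plus strand: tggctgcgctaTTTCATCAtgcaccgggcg
Tars, chr15:11399655-11399684, minus strand: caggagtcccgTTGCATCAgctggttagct
Yars, chr4:129189895-129189924, plus strand: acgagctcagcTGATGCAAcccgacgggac
Iars, chr13:49682126-49682155, plus strand: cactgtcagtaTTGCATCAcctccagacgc

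In Asns the match began at position -23 from the RefSeq start. The window of Aars, not shown above, held 2 matches, the first at position -112. The match was found in 10 of the 31 amino acid response genes with a promoter entry (32.3%) and in 5 of the 12 synthetase genes with one (41.7%). Over all 27025 genes of the promoter table it was found in 1219 (4.51%), and in 3.97% of the 32851 promoters. Both lists are of genes in the response that ATF4 switches on, so a higher share in them is no result of these libraries. Among members of both lists tested, it was in 9 of 20 whose interaction was positive with an unadjusted p under 0.05 and in 6 of 22 others. Those 6 were Atf3, Got1, Nupr1, Vldlr, Slc7a11 and Pycr1, whose sequences are not shown. The windows of Psat1, Eprs, Slc7a1, Mthfd2, Phgdh and Sars did not hold these letters, and that of Nars was not analysed here. A match describes the sequence only.

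In the negative direction, where WT went up more than KO, no gene passed the adjusted threshold. Cfp, or properdin, which stabilises the complement enzyme that cleaves C3, came nearest. It read 342, 314 and 311 CPM in WT on day 7 and 817, 723 and 854 on day 8, and 510.3, 512 and 518 in KO on day 7 and 785, 838 and 818 on day 8. It rose in both, by 1.31 in WT and 0.66 in KO on the log2 scale, from a start that was higher in every KO library and to an end where the genotypes overlapped. The interaction was -0.64 ± 0.12 with an adjusted p of 0.0504 in edgeR's test, and it passed in 7 of 29 alternatives, at adjusted p-values from 1.3e-05 (DESeq2) to 0.57.

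Rasgef1b, an exchange factor for Ras-family proteins, had its genotypes in opposite order on the 2 days, and the genotype difference passed the adjusted threshold on neither. It read 24.7, 24.9 and 23.02 CPM in WT on day 7 and 36.8, 37.6 and 47.3 on day 8, and 31.2, 32.9 and 27.4 in KO on day 7 and 24.7, 24.5 and 27.3 on day 8. Every KO library was above every WT library on day 7, and every day 8 WT library was above all others. It rose in WT (0.74), its KO value of -0.26 did not pass, and the interaction was -1.001 ± 0.19 (adjusted p = 0.060, edgeR). The sterol regulator Insig1 crossed over, from 51.8, 45.6 and 50.7 to 59.4, 59.7 and 65.2 CPM in WT and from 48.5, 55.7 and 54.4 to 45.4, 43.6 and 44.7 in KO. Its interaction of -0.56 ± 0.14 had an adjusted p of 0.31 in edgeR's test. The other 7 genes that the naming rule added in this direction had adjusted p-values of 0.38 to 0.54. S100a4, a calcium-binding protein of motile cells, rose in both, by 2.41 in WT and 1.105 in KO. Slfn2, a gene of the Schlafen family, rose in both, by 0.74 and 0.34, and so did the homeobox gene Hlx, by 1.12 and 0.51. Rapsn, Lpar5 (a receptor of lysophosphatidic acid), Sh3tc1 and Myl12b (a myosin light chain) had interactions of -1.02, -0.83, -0.32 and -0.62. Myl12b fell in KO (-0.53), with a WT value of 0.10.

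The other 26 gene lists had 0 members past the adjusted interaction threshold in edgeR's test and in limma on TPM, and the DESeq2 Wald test called 1 member each of the NF-kB, sterol and oxidative phosphorylation lists. Several lists still had nearly all values on one side of 0. For mitosis, 49 of 52 members were below 0 with a median of -0.67, but only Gtse1, a spindle protein, had an unadjusted p under 0.05. In WT 23 mitosis genes rose and 1 fell, where 21.5% of all genes rose and 22% fell. In KO 1 rose and 1 fell, where 21.1% rose and 20.9% fell. Kif23, a motor of cell division, read 9.27, 6.93 and 6.42 CPM in WT on day 7 and 19.6, 15.9 and 20.8 on day 8. In KO it read 11.2, 25.4 and 13.8 on day 7 and 17.8, 31.6 and 11.03 on day 8. Birc5, survivin, read 8.42, 19.7 and 11.1 in KO on day 7 and 11.5, 23.9 and 7.23 on day 8. The KO libraries numbered 67 were the highest on both days and the day 8 KO library 68 was the lowest, so the KO groups overlapped across days. The list median was -0.29 without the day 7 KO library 67, -0.38 without the day 8 KO library 68 and -1.14 without the day 8 KO library 67. In DNA replication 40 of 43 members were below 0 (median -0.41), with Gins1, Gins2 and Pole at an unadjusted p under 0.05, against 1.95% of all genes. There 23 genes rose in WT, against 21.5% of all genes, and 8 in KO, near the 21.1% of all genes. The median was -0.23 without either the day 7 KO library 67 or the day 8 KO library 68 and -0.68 without the day 8 KO library 67. Gins2 overlaps Gse1 on the other strand, which had 1121% of its counts.

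Many interferon-stimulated genes started higher in KO. Of 41 tested, 38 had a negative interaction (median -0.33), 7 with an unadjusted p under 0.05, against 1.95% of all genes. In WT 28 rose, against 21.5% of all genes, and in KO 19 rose, against 21.1%. Oas2, a sensor of double-stranded RNA, read 13.7, 17.6 and 16.8 CPM in WT on day 7 and 50.9, 47.9 and 46.7 on day 8, and 29.2, 52.9 and 34.9 in KO on day 7 and 67.8, 54.7 and 55.9 on day 8. All KO libraries were above all WT libraries on both days. Its interaction of -0.99 ± 0.32 had an adjusted p of 0.69 in edgeR's test, and those of Oas1a, Mx1 and Usp18 were -0.48, -0.59 and -0.58. On day 7, 11 of the 41 were called higher in KO, where 0.832% of all genes were, and every KO library was above every WT library for 32, against 11.9% of all genes. On day 8 none was called, and 9 did not overlap in that direction, against 4.4%. Without the day 7 KO library 67 the list's median interaction was -0.16.

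In sterol synthesis 24 of 25 genes were below 0, with a median of -0.32 and 6 with an unadjusted p under 0.05, against 1.95% of all genes. In WT 16 rose and 2 fell, where 21.5% of all genes rose and 22% fell. In KO 8 rose and 4 fell, where 21.1% rose and 20.9% fell. Every KO library was above every WT library for 8 of 25 genes on day 7, against 11.9% of all genes. On day 8 every WT library was above every KO library for 8 of 25, against 4.99%.

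Dendritic cell maturation genes had a positive median of 0.17, with 26 of 33 above 0, and it rested on 1 library. Without the day 8 KO library 67 it was -0.03, with 14 of 33 above 0. Serpinb6b, a serine protease inhibitor of this list, showed the same library at 20.9 CPM, against 7.02 and 4.56 in the other day 8 KO libraries and 3.48 to 10.3 in the other groups. Markers of other myeloid cells were present in all groups. The summed level of the 17 neutrophil markers was 7562 to 13484 TPM for WT and 10096 to 25274 for KO on day 7, then 10084 to 12735 and 11633 to 17787. That of the 14 macrophage markers was 7175 to 7787 and 6972 to 8520 TPM on day 7, and 7165 to 7700 and 5988 to 8738 on day 8. The groups overlapped in each case, the median interactions of these lists were -0.44 and -0.33, and their part in the results above was not tested. With libraries or numbers left out in turn these medians ran from -0.68 to -0.055 and from -0.39 to -0.11. The neutrophil granule gene Camp read 16.3, 29.5 and 39.7 CPM in WT and 35.9, 73.9 and 48.0 in KO on day 7, where library 67 was the highest, and 18.5 to 26.4 in all 6 libraries of day 8. It fell in KO (-1.12), and its interaction of -0.77 ± 0.39 did not pass. Monocyte genes had a median interaction of -0.57 (-0.87 to -0.078 with libraries or numbers left out). Of 11 tested, 2 rose and 4 fell in WT (median change -0.41), where 21.5% of all genes rose and 22% fell. In KO 1 rose and 6 fell (median change -0.94), where 21.1% of all genes rose and 20.9% fell. Vcan, a matrix proteoglycan of monocytes, was the 1 that rose in KO. It rose by 3.73 in WT and 2.51 in KO. The lymphoid markers summed to 4.03 to 12.24 TPM over the 12 libraries.

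**Figure D4:**
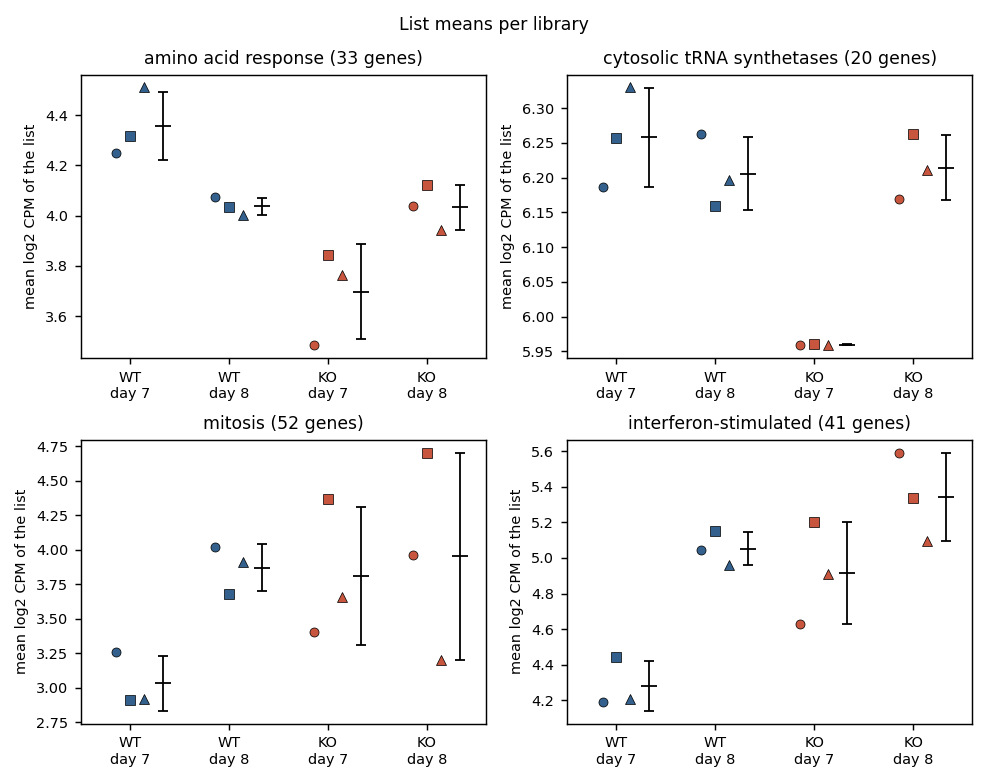
Mean log2 CPM of 4 gene lists in each of the 12 libraries (WT blue, KO red, symbols as the mouse labels), with the group mean and SD (n = 3) in black; the axes do not start at 0. The day 7 KO libraries lie below all others in the amino acid and synthetase lists, whereas in the mitosis list the KO libraries labelled 67 (squares) are the highest on both days.

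Genes nearer to the targeted complex showed little. The 10 Arp2/3 subunit genes, Arpc4 included, had a median interaction of 0.03, with 5 above and 5 below 0. Arpc1b, a subunit of blood cells, read 603, 608 and 602 CPM in WT on day 7 against 743, 842 and 859 in KO, and 959, 807 and 939.8 against 915, 942 and 971 on day 8. It rose in WT (0.58), its KO value of 0.21 did not pass (adjusted p = 0.052, edgeR), and its interaction of -0.37 ± 0.12 had an adjusted p of 0.73. Pdap1 overlaps it on the other strand with 7.1% of its counts. The actin regulators had a median of 0.04 over 29 genes and the SRF targets of -0.01 over 14. Chaperones of the endoplasmic reticulum, which another stress branch controls, rose in both genotypes, 17 of 20 in WT (against 21.5% of all genes) and 16 of 20 in KO (against 21.1%), with a median interaction of -0.02. Immediate early genes had a median of 0.25 (0.060 to 0.35 with libraries or numbers left out). Fosb, a transcription factor subunit, fell in both (-3.32 in WT, -1.70 in KO), and its interaction of 1.63 ± 0.58 did not pass, while Maff, another, rose in KO (0.48) with a WT value of 0.01. The monocyte attractants Ccl2 and Ccl7 rose in both, by 3.56 and 4.37 in WT and by 2.46 and 2.89 in KO. Their interactions of -1.09 and -1.48, like that of Fosb, did not pass in the fit over all 24 libraries. Ccl2, Ccl7 and Fosb passed in both fixed blocks with exchanged KO numbers (adjusted p = 0.0023 to 0.029, edgeR), and not in the block as labelled. Ribosomal protein genes were above 0 in 70 of 86 cases with a small median of 0.10.

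**Figure D5:**
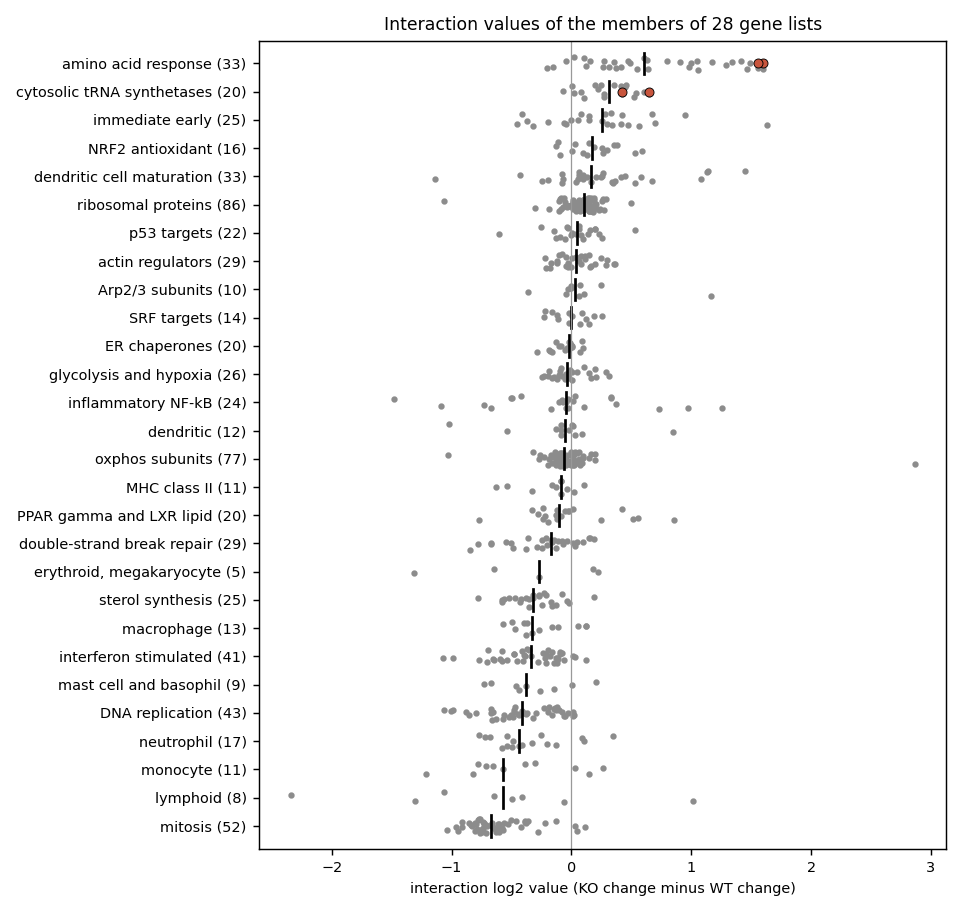
Interaction log2 value of every tested member of 28 gene lists (grey points, number tested in brackets), with the list median as a black bar and the 4 genes past the adjusted threshold in red. The amino acid response and synthetase lists have the highest medians, 0.61 and 0.31, and the mitosis list the lowest, -0.67; all 4 red points lie in the top 2 lists.

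Of the 9 genes whose day 7 to day 10 change was known to differ between the genotypes in these data, 4 are those called here. Ccn3, a matricellular protein, rose in both genotypes, from 7.59, 11.1 and 8.86 to 173, 192 and 221 CPM in WT and from 3.39, 2.96 and 5.01 to 153, 175 and 146 in KO. Its interaction was 0.97 ± 0.23 (adjusted p = 0.28, edgeR). Spred2, which restrains ERK signalling, rose in KO (0.80), with a WT value of 0.13 and an interaction of 0.68 ± 0.15 (adjusted p = 0.15, edgeR). Ptx3, Cars and Eprs are given above. All 9 were positive, but the day 7 libraries enter both contrasts. Cox6a2, a subunit of cytochrome oxidase known from muscle, had the highest interaction among genes named by the rule, 2.87 ± 0.65 (adjusted p = 0.20, edgeR). It read 5.18, 6.98 and 14.3 CPM in WT on day 7, 0.239 to 0.919 on day 8, 1.36 to 2.14 in KO on day 7 and 0.469 to 1.14 on day 8. Itgad overlaps it on the other strand with 50.9% of its counts.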

How the data were processed

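RNA of 24 libraries was sequenced, and the 12 of days 7 and 8 are described. Per the submitters' processing notes, reads were checked with FastQC 0.11.9 and aligned to mm10 with STAR 2.6.1, and DESeq2 1.22.2 was used. The authors deposited raw counts per gene, and the counting tool and strand setting are not given in the sources used here. The authors also deposited TPM values, which are scaled for gene length and used here for markers and 1 alternative. Per the labels, 2 kinds of kit were used, and which library had which is not given.

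Counts were fitted with edgeR 4.0.16 (R 4.3.3) by the quasi-likelihood method over all 24 libraries with 8 group coefficients (16 residual df), TMM scaling and filterByExpr, two-sided, with Benjamini-Hochberg adjustment over 14535 genes and a threshold of 0.05. The SE of a log2 value was derived from it and its F statistic. limma 3.58.1 and DESeq2 1.42.0 gave alternatives. The scripts were tested on simulated data. Gene positions came from GENCODE M21, in which 99.3% of the IDs were found. Each mouse gave 1 library a day per the labels, so n = 3 mice per genotype.

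The labels give 1 mouse number to libraries of both days. After subtracting each group's mean, libraries with 1 number correlated at 0.29, 0.38 and 0.40 in WT over 10768 autosomal genes. In KO they correlated at 0.13, 0.67 and 0.31 as labelled, and at 0.45, 0.67 and 0.013 with 64 and 68 exchanged. In the other order that Ddx3y allows they correlated at 0.45, -0.12 and -0.33. Ddx3y and Xist go against the labelled KO numbers.

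Named genes were Arpc4, genes past the interaction threshold with an average log2 CPM above 1, the genes of smallest p up to 10 in each direction, up to 4 members of each list, and the 9 genes of the day 10 comparison. Other genes were named after their values were seen. The members and lists were chosen with earlier results of these data known. Alternatives were other scalings, filters, tests and values, an Xist covariate, mouse blocks and leaving out each library or number.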

Additional observations from a re-analysis of the deposited data

Results flagged for a closer look

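The day 7 to day 8 changes of the genotypes differed, by the interaction test of edgeR with Benjamini-Hochberg adjustment, for 4 genes. The KO change minus the WT change was 1.60 for Asns, 1.55 for Psat1, 0.65 for Aars and 0.42 for Nars on the log2 scale. WT was lower on day 8 in 3 of 3 mice for Asns, Aars and Nars. For Psat1 it was lower in mice 65 and 66, with changes of -0.73 and -0.69 on the log2 scale, and nearly level in mouse 63, at -0.038.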

How the results depend on the processing

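The interaction was called for 4 genes. It was called for 10 with no filter on low counts, 8 with a mean of at least 50 counts and 1 with only the 12 libraries. With Xist as a covariate it was called for 11, which include the Y-linked genes Kdm5d and Uty (-2.38 and -2.24). It was called for 24 with the DESeq2 Wald test, 0 with limma on TPM and 2 with an absolute log2 value of at least 1. With a fixed replicate block it was called for 2 as labelled and for 28 with KO numbers 64 and 68 exchanged, and for 4 in the other order that Ddx3y allows, which held 0 of the 4 main genes. Leaving out libraries gave 0 to 4. A log2 limit of 1 left 1695 genes in the WT change and 1534 in the KO change, whose ranges without a replicate were 4397 to 6978 and 4667 to 6322. For KO minus WT on day 7, 340 genes passed with no filter, 88 with only the 12 libraries, 523 with DESeq2, 120 with limma on TPM and 56 with the log2 limit, and leaving out libraries gave 11 to 351. On day 8, 25 passed with no filter, 2 with Xist and 17 with DESeq2, and leaving out libraries gave 1 to 70. A fixed mouse block gives no genotype difference within a day. The cause of these differences was not tested.

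Among the 75 genes followed across the alternatives, signs turned for 4. Arpc4 was 0.000726 with no filter, 0.00151 with limma on TPM and 0.000200 with a random block, and -0.0891 to 0.0668 without a replicate. Kars was -0.0105 with DESeq2 size factors, -0.0143 with only the 12 libraries, -0.0103 with DESeq2 and -0.0134, -0.0135 and -0.0136 with the fixed blocks, and -0.0478 to 0.0474 without a replicate. Without a replicate Atf3 ran from -0.271 to 0.156 and Mthfd1l from -0.382 to 0.0287. With 3 libraries per group, the median SE of 0.202 limits which interactions could be called.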
